A study of Ictidomys tridecemlineatus with 15 samples.

Results

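The translation initiation factors described here are 50 genes measured in the supraoptic nucleus of the thirteen-lined ground squirrel (Ictidomys tridecemlineatus), a hibernator. They are the genes of the deposited table whose symbol begins with Eif followed by a digit and whose mean over the 15 libraries was at least 1 normalised CPM (read counts scaled to library size and by a further factor per library). Of the 16993 genes in the table, 51 carry such a symbol. Eif4e1b, at a mean of 0.848 normalised CPM, lay just outside the limit, and Eif4ebp3, at 8.51, was the lowest gene inside it. All 50 passed the filter on low values, and a reference name table of the species listed each of them.

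Initiation begins when eIF4F binds the 5′ cap of an mRNA. Eif4e is its cap-binding subunit, Eif4g1 and Eif4g3 are alternative scaffolds, and Eif4a1 and Eif4a2 are alternative RNA helicases. The small ribosomal subunit, carrying eIF3, eIF1, eIF1A and the complex of eIF2 with GTP and initiator tRNA, is then recruited and scans to the start codon. The pathway has a pair of well-known brakes. The Eif4e-binding proteins block the assembly of eIF4F until mTORC1 phosphorylates them, and the Eif2ak kinases phosphorylate the alpha subunit of eIF2, which inhibits its exchange factor eIF2B. Both brakes act on protein, and protein or phosphorylation was not measured. In hibernators, protein synthesis is known to be low in torpor and to return in arousal.

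There were 15 libraries, 5 from each of 3 states, which the study calls biological replicates. Active animals were not hibernating. The others were hibernating, either in torpor or in interbout arousal (IBA), a short rewarming that separates torpor bouts. The tissue was excised manually from brain slices, so each library mixes the RNA of neurons with that of glia and blood vessels. The sources used here give no age, sex or body temperature of the animals.

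Each library held 15844561 to 26113341 reads counted to genes, recovered from the deposited values. Levels below are normalised CPM, with mean ± SD and n = 5 per state, and libraries are listed in the order 1 to 5. They are not divided by transcript length, so levels are compared between states and not between genes. A log2 fold change is the difference between the state means of log2(value + 1), given ± SE. Each p was adjusted by Benjamini-Hochberg over the 15501 genes tested with limma-trend, and a gene passed below 0.05. The 13 neuron markers were all detected, and their summed level was 5110 to 6239 in the active state, 5341 to 6226 during IBA and 6123 to 6746 in torpor. Of 12 oligodendrocyte markers measured, 9 were higher in torpor than in active libraries, and their summed level was 2994 to 5375 in the active state, 3671 to 9523 during IBA and 4328 to 14629.5 in torpor. No measured marker of these cell types was at 0 in all 5 libraries of a state. The 9 astrocyte markers had sums of 7543 to 14352 in the active state, 4900 to 9899 during IBA and 5141 to 6985 in torpor, and of them only Gfap passed in torpor against active (lower, 5887 ± 1985 to 1847 ± 838). Of 11 mural cell markers 4 were lower and 0 higher in torpor than in active, with sums of 404 to 513 in the active state, 375 to 594 during IBA and 214 to 464 in torpor. Of 12 endothelial markers tested 3 were lower and 1 higher, and of 9 microglia markers tested 2 were higher. Of the 13 neuron markers 3 were higher and 1 lower, with a median log2 change of 0.34. Over all genes tested, 9.73% were higher and 9.74% lower in torpor than in active. In such bulk samples, fewer cells of a type and less RNA per cell cannot be told apart.

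Most initiation factor genes differed little between torpor and active animals. Of the 50, 8 (16%) passed the test, against 19.5% of all genes tested. Eif2a, Eif2ak1, Eif3f, Eif4g1, Eif4h and Eif5a were higher in torpor, 12% of members against 9.73% of all genes. Eif1b and Eif4ebp2 were lower, 4% of members against 9.74% of all genes. The median size of the log2 change, sign ignored, was 0.14 among members and 0.23 among all genes. The median signed change was 0.02, beside 0.01 for all genes. In 5 members (10%) the torpor and active libraries did not overlap, against 12.2% of all genes: Eif1b, Eif2a, Eif2ak1, Eif3f and Eif4ebp2. Scaling by library size alone shifted the median of all genes to −0.06 on the log2 scale and gave 12 members, 4 higher and 8 lower, where over all genes it gave 1053 higher and 2273 lower in place of 1508 and 1510. With the mean oligodendrocyte marker level as a covariate, 5 members passed, 4 higher and 1 lower. Among the 8 above, Eif2ak1, Eif3f and Eif4ebp2 still passed with this covariate. Eif1b, Eif2a, Eif4g1, Eif4h and Eif5a did not (limma-trend adjusted p = 0.118 to 0.510), so the 5 include members outside the 8. The same fit called 757 of all genes, 381 higher and 376 lower.

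**Figure D1:**
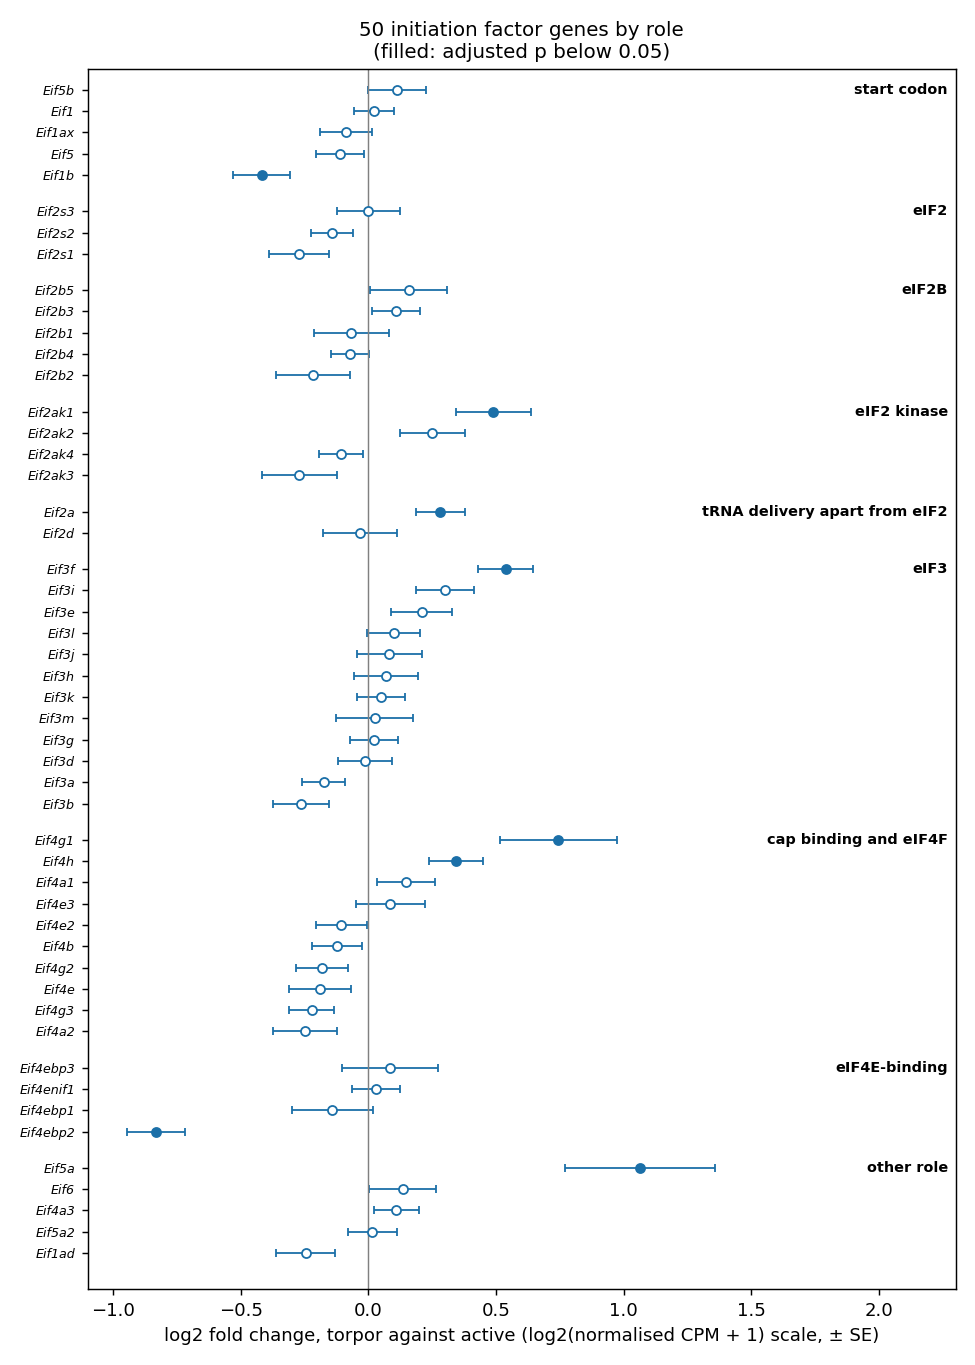
Log2 fold change of each of the 50 initiation factor genes in torpor against active (difference of mean log2(normalised CPM + 1), horizontal axis), grouped by role, with bars of ± 1 SE and filled points for the 8 genes that passed. Eif4ebp2 lies furthest to the left at −0.83 and Eif5a furthest to the right at 1.06, while most subunits of eIF2, eIF2B and eIF3 sit close to 0.

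The member with the smallest p was Eif4ebp2, which fell in torpor. It encodes the Eif4e-binding protein known as the main form in the mammalian brain. It stood at 31.6, 36.4, 37.7, 35.0 and 34.2 normalised CPM in active libraries, at 26.1, 33.1, 30.2, 23.1 and 27.6 in IBA, and at 20.6, 18.8, 20.3, 15.5 and 21.3 in torpor. Every torpor library lay below every active and every IBA library. The torpor mean of 19.3 ± 2.296 was 0.552 of the active mean of 35.0 ± 2.29, a log2 fold change of −0.83 ± 0.11 (limma-trend adjusted p = 2.07e-04). Against the IBA mean of 28.0 ± 3.81, torpor was lower by a log2 change of −0.51 ± 0.11 (adjusted p = 0.0229). It was the only member that passed in torpor against IBA. IBA against active gave −0.32 ± 0.11 (adjusted p = 0.141), with ranges that overlapped. The torpor against active call held under all 22 alternative settings. The call against IBA was lost without IBA library 2 (adjusted p = 0.0652), IBA library 3 (0.0699) or torpor library 4 (0.0510), and in a fit of the 10 libraries compared (0.0581).

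The other Eif4e-binding genes did not pass in any comparison. Eif4ebp1, the form best known as an mTORC1 substrate, stood at 10.6, 9.78, 15.7, 11.6 and 11.02 in active libraries, at 9.74, 7.30, 7.66, 12.7 and 11.02 in IBA, and at 10.1, 10.1, 11.5, 11.5 and 9.08 in torpor. The ranges of the states overlapped throughout. Its log2 fold change was −0.14 ± 0.16 in torpor against active (adjusted p = 0.563) and −0.26 ± 0.16 in IBA against active (adjusted p = 0.372). Eif4ebp3, the least abundant member in reads, stood at 7.73, 9.31, 8.99, 7.30 and 7.32 in active, 11.9, 7.02, 7.46, 7.16 and 8.58 in IBA and 11.6, 11.98, 7.81, 5.44 and 7.96 in torpor libraries. Its torpor libraries spanned the values of both other states (log2 fold change 0.08 ± 0.19, adjusted p = 0.787). Eif4enif1, which carries Eif4e into the nucleus and to RNA granules, had means of 41.6 ± 2.73, 40.3 ± 1.16 and 42.6 ± 5.27 in active, IBA and torpor.

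Eif4e itself stood at 249, 247, 245, 297 and 250 in active libraries, at 223, 193, 219, 209 and 229 in IBA, and at 248, 280, 246, 158 and 212 in torpor. All 5 IBA libraries lay below all active libraries, whereas torpor libraries spread across both. Neither the torpor difference (−0.19 ± 0.12, adjusted p = 0.284) nor the IBA difference passed. The ratio of Eif4ebp2 to Eif4e was also formed within each library, where the scaling of the library cancels. This ratio uses the same Eif4ebp2 values and is no separate evidence of their fall. Because the genes differ in length, only its change between states can be read. The mean log2 ratio was −2.84 ± 0.15 in active, −2.90 ± 0.25 in IBA and −3.48 ± 0.24 in torpor. Torpor lay below active by −0.64 and below IBA by −0.58, with no overlap in either case. Both had the smallest p that the arrangements of 5 against 5 libraries allow (two-sided exact permutation test, p = 0.00794, adjusted over 18 tests p = 0.0476). IBA against active differed by −0.06 (exact p = 0.683). The call was lost in torpor against active under 6 of 12 alternative settings (leaving out active 1, 2, 4 or 5, or torpor 3 or 4). Against IBA it was lost under 3 of 12 (without IBA library 2 or torpor library 3 or 4). In these settings the adjusted p of the exact test reached up to 0.0714, with no change of direction.

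The ratio of Eif4ebp1 to Eif4ebp2 shares the Eif4ebp2 values and is no separate evidence. The mean log2 ratio was −1.51 ± 0.21 in active, −1.46 ± 0.49 in IBA and −0.82 ± 0.27 in torpor. Torpor and active libraries did not overlap (difference 0.69, exact permutation p = 0.00794, adjusted p = 0.0476). Torpor against IBA gave 0.64 (exact permutation p = 0.0397, adjusted p = 0.0649). With 1 library left out, the adjusted p of this ratio in torpor against active reached up to 0.0714 with no change of direction.

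**Figure D2:**
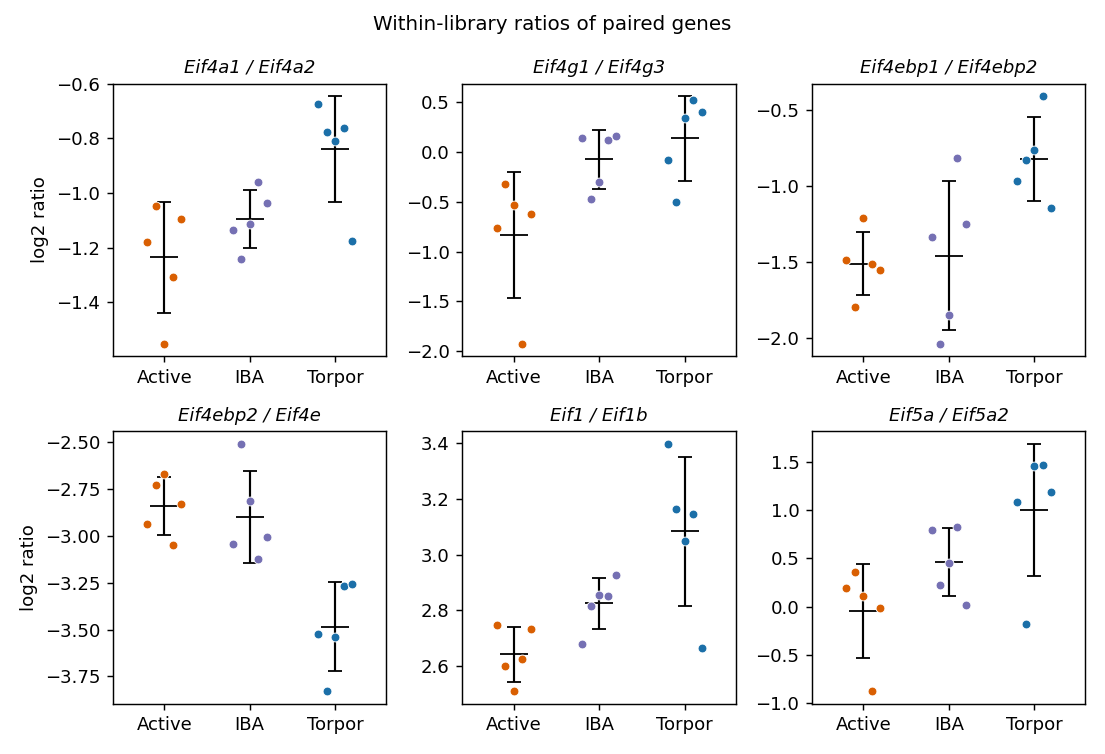
Log2 ratio of 6 pairs of initiation factor genes within each library, (value + 1) of the first gene over (value + 1) of the second, by state, with each axis at its own range (points are libraries, lines are the mean ± SD, n = 5 per state). The Eif4ebp2 to Eif4e ratio is lower in all torpor libraries than in any active or IBA library, and the Eif4ebp1 to Eif4ebp2 ratio is higher in all torpor libraries than in any active library.

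The 10 genes grouped here under cap binding and eIF4F include Eif4g2, a relative of the scaffolds (torpor log2 fold change −0.18 ± 0.10, adjusted p = 0.221). Of the 10, the scaffold Eif4g1 and the helicase cofactor Eif4h were higher in torpor than in active animals, and 8 did not pass. Eif4g1 stood at 88.9, 109.5, 99.0, 39.7 and 86.7 in active libraries, at 136, 93.4, 102, 130 and 153 in IBA, and at 116, 106, 152, 157 and 153 in torpor. Active library 4 was by far the lowest, and torpor library 2 fell inside the active range. The log2 fold change was 0.74 ± 0.23 in torpor (1.62 times the active mean, adjusted p = 0.0320) and 0.58 ± 0.23 in IBA (adjusted p = 0.175). The torpor call of Eif4g1 was lost under 7 of 22 alternative settings, among them without torpor library 3, 4 or 5 (adjusted p = 0.0649 to 0.0723), without torpor libraries 4 and 5 (0.146) and in the fit of the 10 libraries compared (0.0589). With the oligodendrocyte marker covariate its log2 change was 0.67 (adjusted p = 0.277).

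Eif4h, which stimulates the eIF4A helicases, stood at 422, 414.5, 422, 289 and 465 in active libraries, at 498, 504, 504, 495 and 487.5 in IBA, and at 543, 432, 523, 518 and 513 in torpor. The 5 IBA libraries were close together and all above the active ones. Torpor library 2 fell inside the active range. The log2 fold change was 0.34 ± 0.11 in torpor (adjusted p = 0.0328) and 0.32 ± 0.11 in IBA (adjusted p = 0.118). The torpor call was lost under 10 of 22 alternative settings, among them without active library 4 (adjusted p = 0.0668), without torpor library 1, 3, 4 or 5 (0.0562 to 0.0683) and with library-size scaling (0.0966). It was also lost without torpor libraries 4 and 5 (0.0984). With the oligodendrocyte marker covariate the log2 change of Eif4h was 0.18 (adjusted p = 0.510).

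Eif4g3, the second scaffold, stood at 152, 137, 144, 153 and 135 in active, 124, 130, 126, 120 and 137 in IBA and 123, 152, 120, 109 and 116 in torpor libraries. Torpor library 2 was the only torpor library inside the active range. The log2 fold change was −0.22 ± 0.09 in torpor (adjusted p = 0.0871), and without torpor library 2 it passed (adjusted p = 0.0148). The mean log2 ratio of Eif4g1 to Eif4g3 was −0.83 in active, −0.07 in IBA and 0.13 in torpor libraries. It was higher by 0.97 in torpor and by 0.76 in IBA than in active (exact permutation p = 0.0159, adjusted p = 0.0536 for each), so neither passed.

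The helicases did not pass. Eif4a1 stood at 425, 467, 481, 486 and 483 in active, 459, 421, 421, 391 and 457 in IBA and 568, 684, 537, 439 and 408 in torpor libraries. Torpor libraries 1 to 3 lay above every other library, and torpor libraries 4 and 5, which had the highest oligodendrocyte marker levels, were the lowest of their state. The log2 fold change was 0.15 ± 0.11 (adjusted p = 0.391), and without torpor libraries 4 and 5 it was 0.34 (adjusted p = 0.0259). Eif4a2, the form abundant in neurons, stood at 963, 966, 1411, 1201 and 1033 in active, 1008, 996, 912, 762 and 937 in IBA and 906, 1172, 941, 745 and 921 in torpor libraries. The states overlapped (log2 fold change −0.25 ± 0.13, adjusted p = 0.175). The Eif4a1 to Eif4a2 ratio was 0.40 higher in torpor than in active (exact permutation p = 0.0238, adjusted p = 0.0536). The helicases are close copies of each other, so how shared reads were counted can move their values.

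Of the 12 eIF3 subunit genes, which form the scaffold that carries the other factors on the small ribosomal subunit, Eif3f alone passed. Eif3f stood at 114, 107, 130, 119 and 108 in active libraries, at 134, 123, 114, 131 and 142 in IBA, and at 134, 198, 185, 185 and 147 in torpor. Torpor and active libraries did not overlap, and torpor libraries 1 and 5 were the lowest of their state. The torpor mean of 170 ± 27.6 was 1.47 times the active mean of 116 ± 9.64 (log2 fold change 0.54 ± 0.11, adjusted p = 0.00281). This call held under all 22 alternative settings. Torpor against IBA, at 0.38 ± 0.11, missed the threshold (adjusted p = 0.0595), and passed without torpor library 1 (adjusted p = 0.0190).

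The other eIF3 genes ran from a log2 change of −0.26 ± 0.11 in Eif3b (adjusted p = 0.0988) to 0.30 ± 0.11 in Eif3i (adjusted p = 0.0694). Eif3i had means of 139 ± 13.8, 143 ± 10.99 and 173 ± 30.9 in active, IBA and torpor, and Eif3b of 42.2 ± 6.86, 32.3 ± 2.74 and 34.7 ± 2.24. The median of the 12 was 0.06. Within torpor the subunits varied by library: torpor library 2 was the highest of the 5 for 10 of 12 subunits, and torpor library 4 or 5 was the lowest for 5 each. Over all 50 members torpor library 2 was the highest for 27 (54%), against 25.9% of all genes, and torpor library 5 the lowest for 20 (40%), against 20.0%. Other states had such libraries as well: IBA library 5 was the highest for 46% of members against 26.2% of all genes, IBA library 2 the lowest for 40% against 20.8%, and active library 1 the lowest for 38% against 18.9%. Oligodendrocyte marker levels in these libraries are given on a mean log2 scale: 7.98, 7.42, 7.08, 8.17 and 8.44 in torpor libraries 1 to 5. The part of cell composition in the order of these libraries was not tested.

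**Figure D3:**
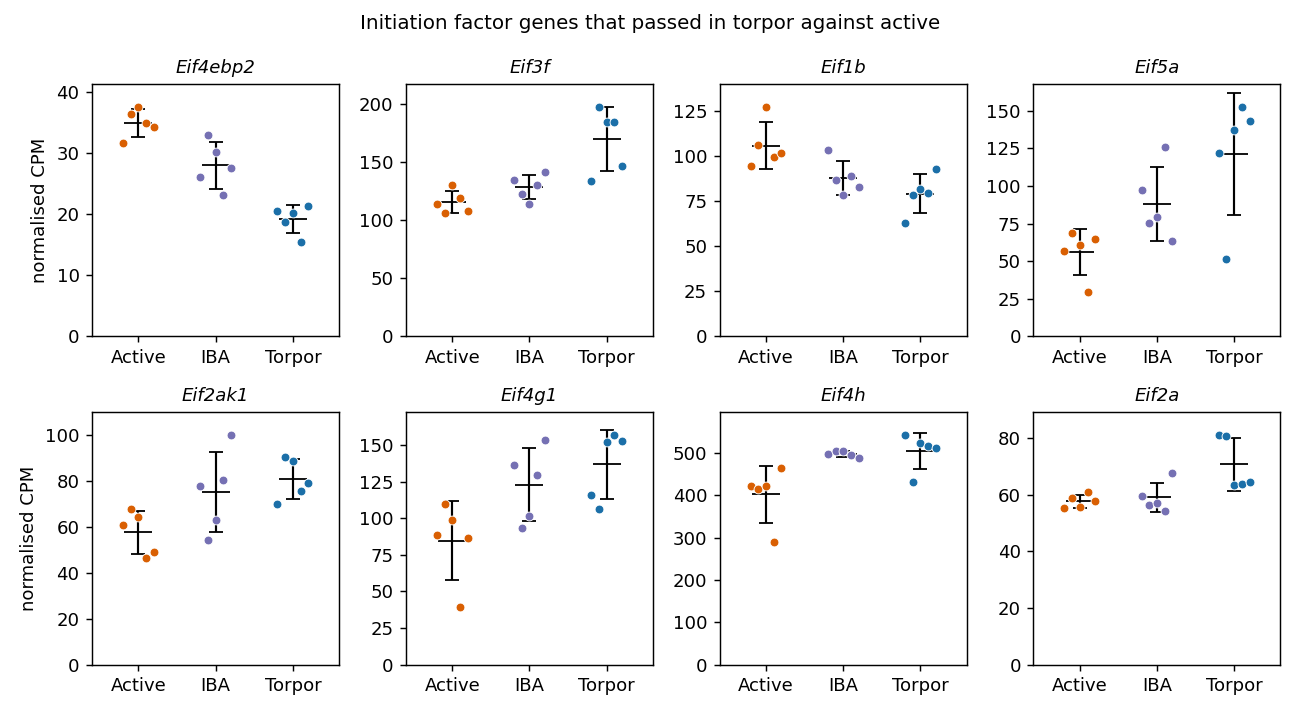
Normalised CPM of the 8 initiation factor genes that passed in torpor against active, by state (points are libraries in the order 1 to 5 from left to right, lines are the mean ± SD, n = 5 per state). Torpor and active libraries do not overlap for Eif4ebp2, Eif3f, Eif1b, Eif2ak1 and Eif2a, whereas active library 4 or torpor library 2 lies away from its group for Eif5a, Eif4g1 and Eif4h.

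None of the 3 genes of eIF2 passed. Eif2s1, the alpha subunit that the Eif2ak kinases phosphorylate, had means of 124 ± 9.29, 110 ± 14.3 and 103 ± 18.0 in active, IBA and torpor (torpor log2 fold change −0.27 ± 0.12, adjusted p = 0.108). Eif2s2, the beta subunit, had means of 170 ± 10.45, 170 ± 15.1 and 154 ± 8.32, and Eif2s3, the gamma subunit that binds GTP and initiator tRNA, had 152 ± 15.2, 145 ± 21.2 and 153 ± 26.9. The 5 genes of the exchange factor eIF2B did not pass either, with torpor changes from −0.22 in Eif2b2 to 0.16 in Eif2b5, the catalytic subunit. Eif2b4 was lower in every IBA library than in any active library, at 112 ± 2.99 against 121 ± 4.18, without passing.

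Of the 4 eIF2 kinase genes, Eif2ak1, the haem-regulated kinase HRI, was higher in torpor than in active animals. It stood at 60.6, 67.5, 64.3, 46.4 and 49.2 in active libraries, at 77.7, 54.2, 63.2, 80.2 and 99.98 in IBA, and at 70.1, 90.5, 88.6, 75.5 and 79.2 in torpor. Torpor and active libraries did not overlap, and IBA libraries reached into both ranges. The torpor mean was 1.40 times the active mean (log2 fold change 0.49 ± 0.15, adjusted p = 0.0258), and IBA against active gave 0.36 ± 0.15 (adjusted p = 0.184). The torpor call was lost under 6 of 22 alternative settings, among them without active library 4 (adjusted p = 0.0646), active library 5 (0.0623), torpor library 3 (0.0607), torpor libraries 4 and 5 (0.0577), and active library 4 with torpor library 2 (0.103). In the name table Eif2ak1 overlaps Aimp2 and Ankrd61. Since the strand setting of the counting is not given in the sources used here, its value is uncertain to that extent. The same limit holds for Eif2ak2 and Eif2ak4, which overlap protein-coding genes, and for Eif2ak3, which overlaps pseudogenes and a long non-coding RNA gene. It also holds for Eif4ebp2, which overlaps a long non-coding RNA gene, and Eif4g1, which overlaps a small nucleolar RNA gene.

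Eif2ak3, the kinase PERK of the endoplasmic reticulum, stood at 16.5, 18.4, 20.8, 16.8 and 18.4 in active libraries, at 13.0, 15.96, 9.85, 11.5 and 12.3 in IBA, and at 10.9, 16.2, 15.1, 19.1 and 14.1 in torpor. Every IBA library lay below every active library, and torpor libraries lay across both. IBA against active gave −0.51 ± 0.15 and missed the threshold in limma-trend (adjusted p = 0.0817), while DESeq2 on recovered reads called it (adjusted p = 0.0258). Torpor against active gave −0.27 ± 0.15 (adjusted p = 0.204). Eif2ak2, the double-stranded RNA sensor PKR, stood at 15.4, 10.95, 15.6, 12.9 and 10.6 in active, 12.7, 13.7, 13.9, 15.6 and 15.5 in IBA and 17.3, 14.4, 14.8, 14.96 and 16.7 in torpor libraries. Its states overlapped (torpor log2 fold change 0.25 ± 0.13, adjusted p = 0.173). Eif2ak4, the amino acid sensor GCN2, stood at 42.7, 39.1, 39.7, 41.2 and 42.4 in active, 38.3, 36.4, 37.5, 36.4 and 42.9 in IBA and 36.9, 40.7, 41.2, 37.5 and 33.9 in torpor libraries. These ranges overlapped as well (torpor log2 fold change −0.11 ± 0.09, adjusted p = 0.401).

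Genes around the eIF2 brake were read from a list of 25 integrated stress response genes, of which 23 were tested. In torpor against active 3 were higher and 4 lower, where 9.73% of all genes were higher and 9.74% lower, with a median log2 change of −0.05 beside 0.01 for all genes. Ppp1r15a, the inducible adaptor that brings a phosphatase to eIF2 alpha, rose from 28.3 ± 5.16 in active to 45.0 ± 7.61 in torpor (0.65 ± 0.13, adjusted p = 0.00330). It was also higher in torpor than in IBA, at 28.1 ± 3.04 (adjusted p = 0.0169), and its torpor range of 36.3 to 57.0 did not overlap either other state. Ppp1r15b, the constitutive adaptor, fell from 46.0 ± 4.84 to 33.3 ± 5.31 (−0.46 ± 0.11, adjusted p = 0.00743). Against IBA, at 45.6 ± 2.92, the fall of Ppp1r15b passed as well (adjusted p = 0.0322), a call lost under 10 of 21 alternative settings. These were without IBA library 1, 2 or 3 or torpor library 2, 3, 4 or 5 (0.0529 to 0.0848), and without torpor libraries 4 and 5 (0.0810). The others were the fit of the 10 libraries compared (0.0613) and the replicate block (0.0756).

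Atf4, the transcription factor whose translation rises when eIF2 alpha is phosphorylated, was lower in both hibernating states, at 69.5 ± 9.39 in IBA and 72.7 ± 10.3 in torpor against 103 ± 6.31 in active. The log2 fold changes were −0.56 ± 0.11 in IBA (adjusted p = 0.0208) and −0.50 ± 0.11 in torpor (adjusted p = 0.00467). The IBA call of Atf4 was lost without active library 3 (0.0526) or IBA library 4 (0.0693), and with the replicate block (0.0684). Mthfd2, a mitochondrial folate enzyme and Atf4 target, stood at 70.3 ± 12.9, 37.9 ± 4.63 and 47.6 ± 9.69 in active, IBA and torpor. It fell in IBA (−0.86 ± 0.15, adjusted p = 0.0116) and in torpor (−0.56 ± 0.15, adjusted p = 0.0140), the latter not without torpor libraries 4 and 5 (0.0649). Elsewhere in the list, Slc7a5 (0.55 ± 0.17, adjusted p = 0.0343) and Vldlr (0.44 ± 0.14, adjusted p = 0.0387) were higher in torpor than in active. Dnajc3 was lower (−0.35 ± 0.10, adjusted p = 0.0208), and 16 genes of the list did not pass. Calls of Slc7a5, Vldlr and Dnajc3 under the alternative settings are not given here. With the oligodendrocyte marker covariate, Ppp1r15a, Atf4 and Mthfd2 no longer passed in torpor against active (log2 changes of 0.58, −0.31 and −0.15, adjusted p = 0.111, 0.244 and 0.668). The IBA calls of Atf4 (−0.45, adjusted p = 0.144) and Mthfd2 (−0.63, adjusted p = 0.0974) were lost with it as well.

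**Figure D4:**
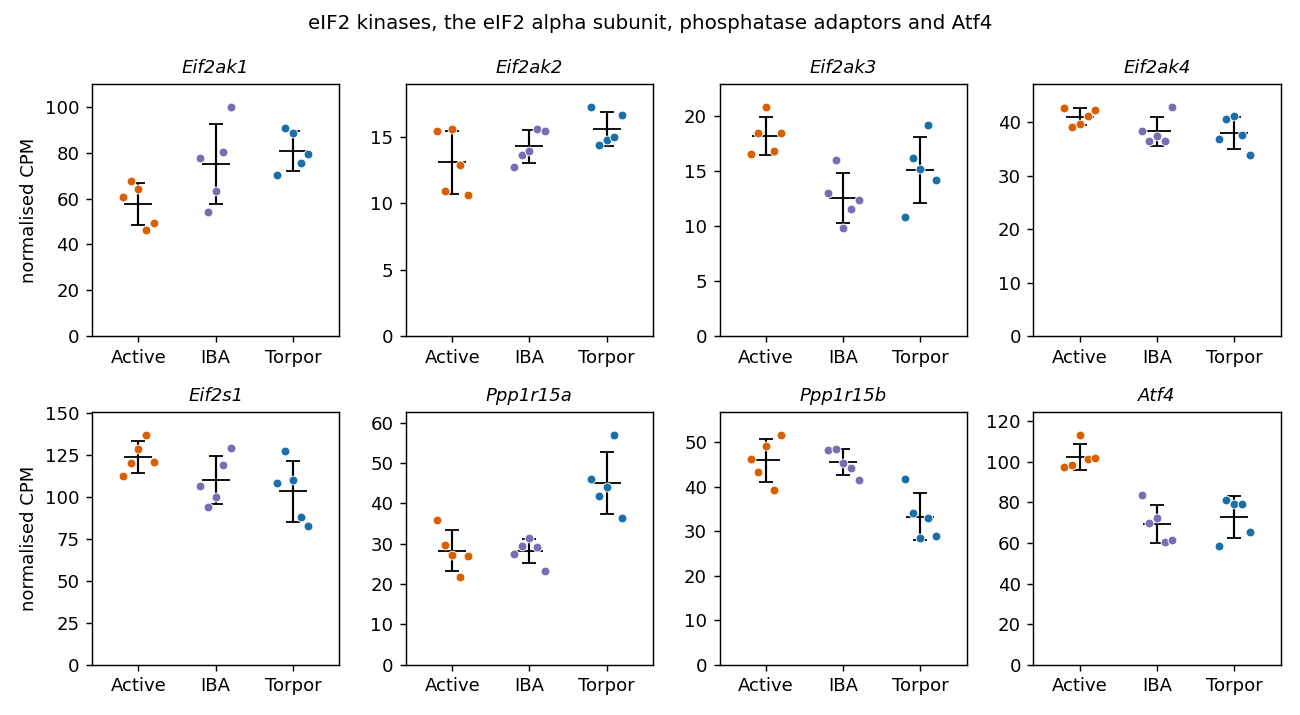
Normalised CPM of the 4 eIF2 kinase genes, the eIF2 alpha subunit gene Eif2s1, the phosphatase adaptors Ppp1r15a and Ppp1r15b, and Atf4, by state (points are libraries, lines are the mean ± SD, n = 5 per state). Ppp1r15a lies higher in all torpor libraries than in any other library, and Atf4 is lower in all IBA and torpor libraries than in any active library.

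Among the start codon factors, Eif1b, a close copy of Eif1, was lower in torpor. It stood at 94.4, 106, 127, 99.4 and 102 in active libraries, at 104, 86.5, 78.3, 88.9 and 82.7 in IBA, and at 62.7, 78.5, 81.6, 79.8 and 93.0 in torpor. No torpor library reached an active one. The torpor mean was 0.747 of the active mean (log2 fold change −0.42 ± 0.11, adjusted p = 0.0136), and among 22 alternative settings the call was lost only with the oligodendrocyte marker covariate (adjusted p = 0.147), under which the log2 change was still −0.42. Eif1, which keeps the scanning ribosome open until a start codon is read, stood at 640, 649, 731, 618 and 682 in active, 669, 615, 573, 648 and 635 in IBA and 670, 712, 682, 713 and 595 in torpor libraries. Its states overlapped (log2 fold change 0.02 ± 0.08, adjusted p = 0.869). The Eif1 to Eif1b ratio was 0.44 higher in torpor and 0.18 higher in IBA than in active (exact permutation p = 0.0238, adjusted p = 0.0536 for each), so neither passed. Reads shared by these copies make the split between them uncertain. Eif1ax, Eif5 and Eif5b, which act in scanning, GTP hydrolysis and joining of the large subunit, had torpor changes between −0.11 and 0.11 and did not pass.

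Eif2a, which can deliver initiator tRNA apart from eIF2, stood at 55.4, 58.7, 55.7, 60.9 and 57.6 in active libraries, at 59.6, 56.4, 57.2, 54.2 and 67.8 in IBA, and at 81.1, 80.8, 63.4, 63.9 and 64.4 in torpor. Torpor libraries 1 and 2 stood well above the rest, and the lowest torpor library was still above the highest active one. The log2 fold change was 0.28 ± 0.10 (1.23 times the active mean, adjusted p = 0.0449), and the call was lost under 12 of 22 alternative settings (adjusted p = 0.0531 to 0.124). Eif2d, which also delivers tRNA apart from eIF2, had means of 44.9 ± 2.13, 47.0 ± 5.54 and 45.0 ± 11.7 in active, IBA and torpor.

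Of the genes named as initiation factors that mainly act elsewhere, Eif5a, a hypusine-carrying protein of elongation and termination, had the largest rise of all 50. It stood at 56.5, 68.9, 60.7, 29.8 and 64.5 in active libraries, at 97.4, 75.2, 79.1, 126 and 63.2 in IBA, and at 122, 51.8, 137, 153 and 143 in torpor. Torpor library 2 lay within the active range, while the other torpor libraries lay above it. The torpor mean was 2.16 times the active mean (log2 fold change 1.06 ± 0.29, adjusted p = 0.0216), and IBA against active gave 0.66 ± 0.29 (adjusted p = 0.233). Eif5a no longer passed without torpor library 3 (adjusted p = 0.0512), torpor library 4 (0.0538) or torpor libraries 4 and 5 (0.121). With the oligodendrocyte marker covariate its torpor log2 change was 0.56 (adjusted p = 0.458).

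Eif5a2, the close copy of Eif5a, stood at 49.3, 53.4, 56.2, 55.5 and 65.1 in active, 55.8, 64.2, 57.5, 70.5 and 62.7 in IBA and 57.1, 58.8, 49.4, 54.7 and 62.2 in torpor libraries. The states overlapped, and the torpor log2 change was 0.02 ± 0.10 (adjusted p = 0.926). The mean log2 ratio of Eif5a to Eif5a2 was −0.05 in active and 1.00 in torpor libraries, a difference of 1.05 that did not pass (exact permutation p = 0.0397, adjusted p = 0.0649). Eif6, which keeps the large ribosomal subunit apart, Eif4a3, a helicase of the exon junction complex, and Eif1ad, a nuclear protein with an eIF1A-like domain, had torpor changes of 0.13 ± 0.13, 0.11 ± 0.09 and −0.25 ± 0.11 and did not pass. Eif1ad was lower in every IBA library (22.0 to 27.2) than in any active library (27.9 to 39.5).

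No initiation factor gene passed in IBA against active in limma-trend, either higher or lower, where 1.3% of all genes did (0.6% higher and 0.703% lower). At an unadjusted p under 0.05 there were 10 members (20%), against 19.7% of all genes. On recovered reads, edgeR called 0 members and 220 of the 15501 genes tested. DESeq2 called 3 members, all lower, and 862 genes, 428 higher and 434 lower. In 5 members (10%), Eif1ad, Eif2ak3, Eif2b4, Eif4e and Eif4h, the IBA and active libraries did not overlap, against 7.01% of all genes. In torpor against IBA, Eif4ebp2 was the 1 of 50 (2%) that passed, against 2.94% of all genes (0.961% higher and 1.97% lower). It was also the only member without overlap, against 5.76% of all genes. These comparisons share libraries with torpor against active, so their values are set side by side only.

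The authors' deposited table holds a joint test of the 3 states. In it 5 of 50 members (10%) had a false discovery rate under 0.05, against 14.6% of all genes. They were Eif4ebp2 at 0.00100, Eif3f at 0.00707, Eif5a at 0.0235, Eif1b at 0.0385 and Eif1ad at 0.0410 in the authors' deposited table.

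Other parts of the translation machinery were counted over lists. Among 23 cap binding and initiation partners, 3 were lower in torpor than in active and 0 higher, where 9.74% of all genes were lower and 9.73% higher. Ddx3x, a helicase that aids scanning of structured leaders, had means of 892 ± 101 in active and 539 ± 97.1 in torpor (−0.74 ± 0.15, adjusted p = 0.00255). Gigyf2, a partner of the Eif4e relative Eif4e2, fell from 129 ± 6.97 to 90.4 ± 8.52 (−0.51 ± 0.09, adjusted p = 0.00132). Mknk1, a kinase that phosphorylates Eif4e while bound to Eif4g, fell from 17.3 ± 2.66 to 10.4 ± 2.67 (−0.71 ± 0.17, adjusted p = 0.00731). With the oligodendrocyte marker covariate Gigyf2 and Ddx3x no longer passed (log2 changes of −0.32 and −0.58, adjusted p = 0.141 and 0.129).

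Of 26 mTORC1 pathway genes tested, 2 were higher and 1 lower in torpor than in active, where 19.5% of all genes passed. Akt1s1, an inhibitory subunit of mTORC1, rose from 18.5 ± 5.65 to 31.6 ± 9.39 (0.76 ± 0.23, adjusted p = 0.0314), and Rheb, its activating GTPase, from 209 ± 11.7 to 247 ± 24.5 (0.24 ± 0.08, adjusted p = 0.0466). Castor1, the arginine sensor, fell from 40.4 ± 2.75 to 31.2 ± 4.44 (−0.37 ± 0.11, adjusted p = 0.0224). The call of Akt1s1 was lost under 9 and that of Rheb under 15 of 22 alternative settings. Castor1 was lost without torpor library 1 (0.0502), without active library 4 and torpor library 2 (0.0817) and with the oligodendrocyte marker covariate (0.135). Tsc1, which restrains Rheb, was lower in torpor (43.2 ± 5.64) than in IBA (65.4 ± 5.99; −0.59 ± 0.13, adjusted p = 0.0255), a call lost without IBA library 1 (0.0596), IBA library 3 (0.0504) or torpor library 2 (0.0564).

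Of 14 translation elongation and termination factors tested, 2 were lower and 0 higher in torpor than in active, where 19.5% of all genes passed. Pelo, a rescue factor of stalled ribosomes, fell from 39.9 ± 3.07 to 27.3 ± 6.20 (−0.55 ± 0.13, adjusted p = 0.00828), and Gtpbp2, its partner, from 6.20 ± 1.28 to 3.58 ± 1.503 (−0.69 ± 0.19, adjusted p = 0.0192). Without torpor libraries 4 and 5 neither passed (adjusted p = 0.0578 and 0.134), and Gtpbp2 was also lost without torpor library 4 (0.0523). With the oligodendrocyte marker covariate the log2 changes were −0.18 in Pelo (adjusted p = 0.546) and −0.40 in Gtpbp2 (adjusted p = 0.417). None of these 14 passed in IBA against active or in torpor against IBA.

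The median coefficient of variation over 5 libraries was 9.57% in active, 9.34% in IBA and 14.0% in torpor libraries, beside 17.0%, 15.4% and 18.8% for all genes tested, which include genes with fewer reads. The highest values belonged to Eif4g1 in active (31.6%) and to Eif5a in IBA (27.7%) and torpor (33.3%).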

How the data were processed

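Per the file headers, the deposited table gives a normalised CPM (a signal) for each gene in each library. The authors' own log2 fold changes, mean log2 levels, F score, p-value and false discovery rate stand beside it. The submitters' processing notes name R 4.2.1, edgeR 3.38.4, Trimmomatic 0.39, STAR 2.7.7a and featureCounts (Subread 2.0.1). The build, the annotation and the strand setting were not given in the sources used here. Read counts were recovered from the deposited values, of which 100% came within 0.1 read of a whole number.

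The test was limma-trend (limma 3.58.1, R 4.3.3; trend, robust, no covariate, two-sided) on log2(value + 1) of all 15 libraries. Genes needed a value of 1 or more in 5 or more libraries, which removed 1492 and kept 15501. The limma-trend procedure was tested on simulated data. Its p-values set the difference between state means against the spread between libraries. The alternatives were other pseudocounts (0.1, 5), no filter, a replicate block, a fit without the state not compared (10 libraries), each library left out, torpor libraries 4 and 5 left out, other scalings, an oligodendrocyte marker covariate, and edgeR 4.0.16 or DESeq2 1.42.0 on the recovered reads. Leaving out active library 4 together with torpor library 2 was added after the data were seen. The members and lists were chosen with earlier results of these data known. Every library's value is given for members that passed, for the kinases, the 3 Eif4ebp genes and the members of the 6 ratios. From each list, up to 4 genes with the smallest p among those that passed are named. Of the integrated stress response list, all that passed in torpor against active are named. By the name table, 22 of 50 members overlap another gene, 8 of them a protein-coding one. Sequences and transcript lengths were not used here.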

Additional observations from a re-analysis of the deposited data

Results flagged for a closer look

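Of 57 groups of 5 libraries examined over 19 members, 4 held a library that stood far from its nearest neighbour for the range of its group. Chance gives such a gap in about 1 in 20 groups. Eif4e had its highest active level, 297 normalised CPM, in active library 4. Eif4h had its lowest active level, 289, in the same library and its lowest torpor level, 432, in torpor library 2. Eif2ak4 had its highest IBA level, 42.9, in IBA library 5.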

How the results depend on the processing

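The counts of calls kept within 1.5 times under other pseudocounts, no filter, median-of-ratios scaling and edgeR. Scaling by library size alone gave 859 genes in torpor against IBA (92 higher and 767 lower, in place of 149 and 306). In the fit of only the 10 libraries compared, 2294 genes and 5 members passed in torpor against active. It gave 385 genes in IBA against active (in place of 202). In torpor against IBA it gave 262 genes (in place of 455) and 0 members. The oligodendrocyte marker covariate gave 757 genes and 5 members in torpor against active (in place of 3018 and 8). It kept only Eif2ak1, Eif3f and Eif4ebp2 of the 8. It gave 18 genes and 0 members in IBA against active. In torpor against IBA it gave 657 genes and 4 members (in place of 455 and 1). DESeq2 gave 862 genes and 3 members in IBA against active, and 1033 genes and 2 members in torpor against IBA. Without torpor libraries 4 and 5, 465 genes and 3 members passed in torpor against IBA.

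Same-numbered libraries did not deviate together (correlations of −0.317 to 0.171 in torpor and active, and 1 of 5 libraries closest to its own number). The labels do not say what the numbers stand for, and such correlations cannot exclude a pairing. With a replicate block, 2285 genes and 4 members passed in torpor against active. The block gave 37 genes in IBA against active and 155 genes in torpor against IBA.

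With each library left out in turn, 2278 to 3315 genes and 4 to 9 members passed in torpor against active. In IBA against active 26 to 162 genes passed, and in torpor against IBA 159 to 670 genes and 0 to 2 members. The gene count in IBA against active was lowest without IBA library 4 and fell by more than 1.5 times without any other library except active library 5 and IBA library 2. That in torpor against IBA was lowest without IBA library 3 and highest without torpor library 1. Members counted at the low end were those without torpor library 3 (4), torpor library 4 (5) and active library 4 (5). The 8 called members kept their direction in torpor against active under every alternative.

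Only differences that passed in no setting changed sign. In torpor against active, leaving out single libraries gave log2 changes of −0.00297 to 0.066 in Eif1, −0.022 to 0.23 in Eif4ebp3 and −0.027 to 0.071 in Eif5a2. Without active library 4 and torpor library 2 they were −0.023 in Eif1, −0.055 in Eif4ebp3 and −0.00136 in Eif5a2. With library-size scaling they were −0.060 in Eif1 and −0.065 in Eif5a2. With the covariate they were 0.033 in Eif2ak4, 0.11 in Eif4e and −0.22 in Eif5a2. Without torpor libraries 4 and 5 they were 0.00398 in Eif4e and −0.018 in Eif5a2. Eif2a in IBA against active ranged from −0.020 to 0.060 with single libraries left out. Eif4h in torpor against IBA ranged from −0.00759 to 0.075, and was −0.00181 without torpor libraries 4 and 5, −0.072 with library-size scaling and −0.050 with the covariate. The Eif4ebp1 to Eif4ebp2 ratio in IBA against active ranged from −0.11 to 0.20, and the Eif4ebp2 to Eif4e ratio from −0.15 to 6.44e-05. The causes were not tested. With 5 libraries per state, small changes can be missed.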
